A study of Mus musculus with 2 samples.

Results

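The miR-99/100 and miR-125 miRNAs were described in 2 replicate libraries of RNA recovered with biotin-labelled proteins from cultured mouse skin keratinocytes. The 9 names were chosen as the 5p names of miR-99a, miR-99b, miR-100, miR-125a and miR-125b and the 3p names of miR-99a, miR-99b, miR-100 and miR-125a, out of 1477 miRNA names found in either library. Both libraries belong to 1 group: keratinocytes grown in a low-calcium medium that expressed an exogenous fusion of desmoplakin (Dsp), a protein that links desmosomes to keratin filaments, with the biotin ligase BirA, and that received biotin. The labels give no mouse strain, age, expression vector, dose or time, and do not say whether the replicates were separate cultures, so the spread between them may be technical. BirA marks proteins near the fusion, Argonaute proteins among them, and the stated aim was to infer what Argonautes do at the desmosomal plaque. No input, unlabelled or whole-cell library was analysed here, so the values say what was recovered, not what was enriched at the junction.

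A miRNA guides an Argonaute protein to mRNAs that pair with its seed, bases 2 to 8 from its 5′ end, and lowers their translation or stability. miR-125 is the vertebrate counterpart of lin-4 of the nematode, and miR-99/100 genes lie with let-7 and miR-125 genes in clusters kept across animals. In skin, miR-125b is known for holding back the differentiation of stem cells, and the miR-99 family for acting on the insulin-like growth factor and mTOR pathway, also in wounds. Each precursor hairpin gives a 5p and a 3p strand, of which one usually stays in the Argonaute as the guide.

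All 9 names had a mature sequence in the RefSeq table of the assembly GRCm38.p6. Of the 1477 miRNA names counted, 1231 had one. The others could not be checked for a seed and are not in the seed sums below. The prefix mmu marks mouse names and is left out below. The 5p strands are shown first, in lower case with the seed in capitals, because they fall into the seed groups that the counts are summed by.
mmu-miR-99a-5p: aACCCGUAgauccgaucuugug
mmu-miR-100-5p: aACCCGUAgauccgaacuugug
mmu-miR-99b-5p: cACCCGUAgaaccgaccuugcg
mmu-miR-125a-5p: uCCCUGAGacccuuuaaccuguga
mmu-miR-125b-5p: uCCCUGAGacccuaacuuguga
mmu-miR-351-5p: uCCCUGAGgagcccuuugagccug
mmu-miR-10a-5p: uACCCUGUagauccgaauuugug
The 3 miR-99/100 strands share the seed ACCCGUA, which no other of the 1679 mature names in the table holds. miR-99a-5p and miR-100-5p differ by 1 base, U16A, counted from the 5′ end of miR-99a-5p. miR-99b-5p differs from miR-99a-5p by 4 bases, A1C, U11A, U16C and U21C. miR-125a-5p and miR-125b-5p share their first 13 bases and their seed CCCUGAG, which 3 other mature names also hold: miR-351-5p, miR-6367 and miR-6394. miR-10a-5p is shown because its end resembles that of miR-100-5p, while its seed, ACCCUGU, is another one.

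The 3p strands are shown because the 3p names of miR-125b tell its genes apart.
mmu-miR-99a-3p: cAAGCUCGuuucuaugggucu
mmu-miR-99b-3p: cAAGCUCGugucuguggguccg
mmu-miR-100-3p: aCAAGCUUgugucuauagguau
mmu-miR-125a-3p: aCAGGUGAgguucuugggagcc
mmu-miR-125b-1-3p: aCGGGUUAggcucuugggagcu
mmu-miR-125b-2-3p: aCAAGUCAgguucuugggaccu
miR-99a-3p and miR-99b-3p share the seed AAGCUCG. The 3p strands of the 2 miR-125b genes have different seeds and differ by 5 bases over 22, from G3A to G20C counted from the 5′ end of miR-125b-1-3p.

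The genes lie in 3 clusters, all on the + strand. Positions are from RefSeq on GRCm38.p6, the assembly also called mm10, which the submitters' processing notes name. The cluster of Mir99b, Mirlet7e and Mir125a spans 692 bases at chr17:17830188-17830879, with 94 bases between the first pair of hairpins and 367 between the second, and lies within the span of the protein-coding gene Spaca6. Mir99a and Mirlet7c-1 lie 656 bases apart on chromosome 16 and Mir125b-2 follows 46522 bases later, in all chr16:77598936-77646343, with no other RefSeq gene over the hairpins; the annotated end of the noncoding gene Mir99ahg lies 40507 bases before Mir99a. Mir100, Mirlet7a-2 and Mir125b-1 at chr9:41531425-41582002 lie within the span of the noncoding gene Mir100hg. Whether the hairpins are exonic or intronic was not analysed here. miR-125b-5p has the same sequence from Mir125b-1 and Mir125b-2, so its counts cannot be split between chromosomes 9 and 16.

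Replicate 1 held 3776893 miRNA counts and replicate 2 held 4122955. Levels are given as CPM, counts per 1000000 miRNA counts of the library. For a name at 0 counts the limit is taken as 3 counts, which is 0.794 CPM in replicate 1 and 0.728 CPM in replicate 2. Intervals and limits cover counting error only, since the tables carry no molecular identifiers. The 7 epithelial marker miRNAs took 10.6% of the counts in each library, and all 7 were found in both. The summed markers of fibroblasts and mesenchyme reached 24.9 and 101.1 CPM, those of endothelium (miR-126a) 515.5 and 426.4 CPM, those of blood 6.09 and 11.9 CPM, those of muscle 34.7 and 20.4 CPM, those of neural cells 113.9 and 101.6 CPM, and miR-211-5p, a melanocyte miRNA, 0 and 1.21 CPM in replicates 1 and 2. The part of such cells in the levels below was not tested.

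Of the 9 names, 7 were found in both libraries and 2, miR-99a-3p and miR-100-3p, were at 0 counts in both. Together the 9 names took 2.41% of the counts of replicate 1 (2.39% to 2.43%, Wilson 95% interval) and 2.23% of those of replicate 2 (2.22% to 2.25%), or 2.32% ± 0.124 (SD, n = 2). The share rested on 1 name. miR-125a-5p held 80.8% ± 0.488 of the counts of the 9 names, miR-99b-5p 7.87% ± 0.0474 and miR-125b-5p 7.49% ± 0.169 (SD, n = 2).

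miR-125a-5p, the strand of the chromosome 17 cluster that carries the lin-4 type seed, had 73200 counts in replicate 1 and 74707 in replicate 2, or 19381 and 18120 CPM. Its level of 18750 ± 892 CPM (SD, n = 2) ranked it 11 among all names. It stood next to miR-6240 (21454 ± 1665 CPM) above and miR-182-5p (18391 ± 176 CPM) below. Its order against miR-182-5p was not the same in both libraries: miR-182-5p had 18515 CPM in replicate 1, below miR-125a-5p, and 18267 CPM in replicate 2, above it. miR-182-5p was also the name whose level was most like that of miR-125a-5p over the 2 libraries, at a distance of 0.067 in log2 CPM among 352 candidate names that averaged at least 100 counts.

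miR-125b-5p, the other miR-125 guide, had 6924 and 6786 counts, or 1833 and 1646 CPM (1740 ± 132 CPM, SD, n = 2). It ranked 72. miR-125a-5p had 10.6 times its counts in replicate 1 and 11.01 times in replicate 2, or 10.8 ± 0.309 times (SD, n = 2). miR-125a-5p thus made up 91.5% ± 0.222 of the miR-125 guide counts.

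The seed CCCUGAG was also brought by miR-351-5p, which comes from the gene Mir351 on chromosome X and lies outside these clusters. miR-351-5p had 6040 and 5963 counts, or 1599 and 1446 CPM, close to miR-125b-5p. miR-125b-5p had 1.14 ± 0.0059 times the counts of miR-351-5p (SD, n = 2), an excess beyond the spread and present in both libraries. miR-6367, which shares the first 13 bases of miR-125b-5p, had 21 and 26 counts, and miR-6394 had 0 and 68. The 5 names known to have the seed took 2.20% ± 0.112 of the counts (SD, n = 2), most of it miR-125a-5p.

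miR-99b-5p led the miR-99/100 strands with 7194 and 7218 counts, or 1905 and 1751 CPM (1828 ± 109 CPM, SD, n = 2), and ranked 70. It had 1.04 times the counts of miR-125b-5p in replicate 1 and 1.06 times in replicate 2, or 1.05 ± 0.0174 times, although the CPM means of the pair differ by less than their SDs. Its most similar name outside the families was let-7d-5p, with 1998 and 1777 CPM, at a distance of 0.072 in log2 CPM.

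miR-99a-5p was far lower, with 680 counts in replicate 1 and 310 in replicate 2, or 180.04 and 75.2 CPM. It was the only one of the 7 names found whose level in one library was more than 1.5 times that in the other. It ranked 184 in replicate 1 and 259 in replicate 2. miR-99b-5p had 10.6 times its counts in replicate 1 and 23.3 times in replicate 2, or 16.9 ± 8.98 times (SD, n = 2).

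miR-100-5p was the lowest 5p strand, with 79 and 71 counts, or 20.9 and 17.2 CPM (19.1 ± 2.61 CPM, SD, n = 2), and ranked 393. miR-99b-5p had 96.4 ± 7.49 times its counts. miR-99a-5p had 8.61 times its counts in replicate 1 and 4.37 times in replicate 2. How reads that match both miR-99a-5p and miR-100-5p, which differ by U16A alone, were assigned is not given in the sources used here. Among the 3 strands with the seed ACCCGUA, miR-99b-5p held 90.5% of the counts in replicate 1 and 94.99% in replicate 2, and miR-100-5p 0.993% and 0.934%. The seed took 0.197% ± 0.0186 of all miRNA counts (SD, n = 2), against 2.20% for the miR-125 seed.

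**Figure D1:**
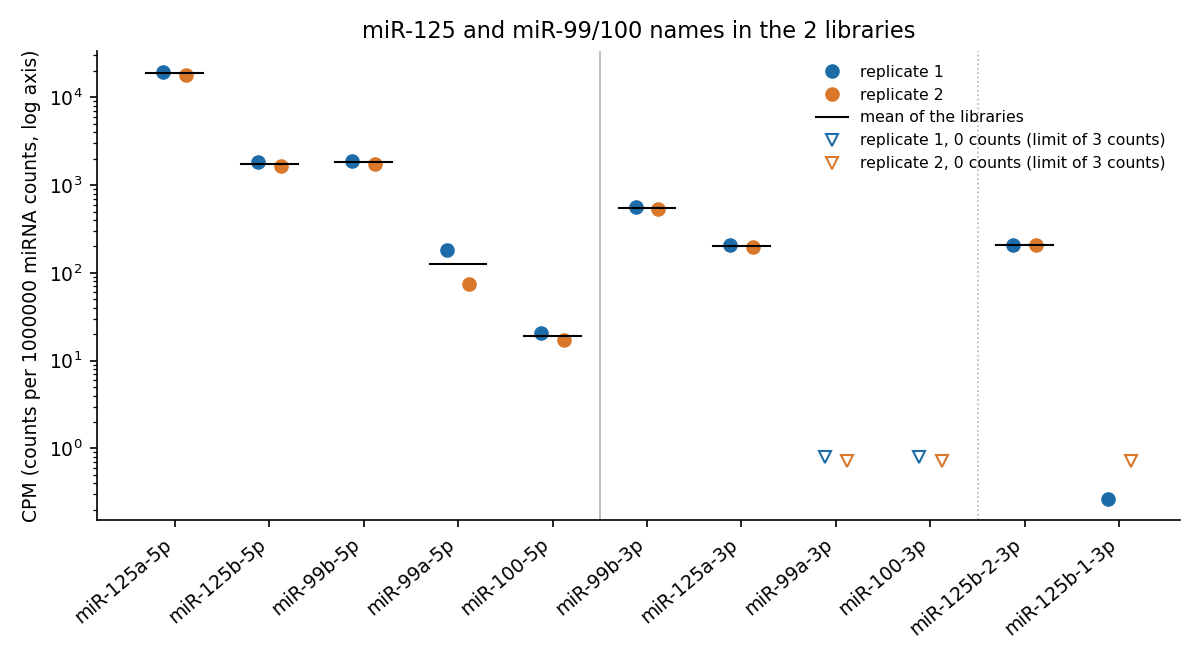
Level of each name in counts per 1000000 miRNA counts (CPM, log axis) in replicate 1 and replicate 2, with the mean of the libraries as a bar; 5p names are on the left, 3p names in the middle, and the 3p names of miR-125b on the right. Open triangles stand at the limit of 3 counts for names at 0 counts. miR-125a-5p lies at 18120 CPM or more in both libraries and miR-100-5p near 20 CPM, and miR-99a-5p has the widest gap between the libraries, 180.04 against 75.2 CPM.

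The order of the levels, from high to low, was miR-125a-5p, miR-99b-5p, miR-125b-5p, miR-99b-3p, miR-125a-3p, miR-99a-5p and miR-100-5p, and it was the same in both libraries. The step from miR-125a-3p to miR-99a-5p was not beyond the spread: the ratio was 1.15 in replicate 1 and 2.63 in replicate 2, or 1.89 ± 1.05 (SD, n = 2). Each of the other steps exceeded a ratio of 1 by more than its SD, the smallest being that between miR-99b-5p and miR-125b-5p. With 2 values an exact two-sided sign-flip test cannot give a p below 0.5, so ratios of names are set against their SD alone.

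Names made from the same cluster were recovered in unequal amounts. On chromosome 17 each mature name comes from 1 gene, so its 3 guides were compared by name. let-7e-5p differs from let-7a-5p by 1 base, U9G, counted from the 5′ end of let-7a-5p. How reads that match both let-7 names were assigned is not given in the sources used here. The ratios with let-7e-5p depend on that assignment. miR-125a-5p had 5.67 times the counts of let-7e-5p in replicate 1 and 5.27 times in replicate 2 (5.47 ± 0.283, SD, n = 2). let-7e-5p, a let-7 guide encoded between the other pair, had 12902 and 14168 counts, or 1.88 ± 0.12 times those of miR-99b-5p. The order miR-125a-5p, let-7e-5p, miR-99b-5p held in both libraries, and the last hairpin of the cluster gave 10.3 ± 0.124 times the 5p counts of the first. These are ratios of reads, whose ligation and amplification can differ for each sequence.

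On chromosomes 16 and 9 the let-7 names and miR-125b-5p also come from other genes. let-7c-5p, encoded by Mirlet7c-1 and by Mirlet7c-2 on chromosome 15, had 66590 and 64848 counts. That was 97.9 times the counts of miR-99a-5p in replicate 1 and 209.2 times in replicate 2. let-7a-5p, which is encoded on chromosomes 9 and 13, had 24028 and 24916 counts, or 327.5 ± 33.1 times those of miR-100-5p (SD, n = 2).

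The names that belong to 1 cluster alone were summed for each cluster. The 6 such names on chromosome 17 (both strands of miR-99b, let-7e and miR-125a) summed to 96308 and 99164 counts, or 24775 ± 1024 CPM (SD, n = 2). The 4 on chromosome 16 (both strands of miR-99a, let-7c-1-3p and miR-125b-2-3p) summed to 1460 and 1175 counts, or 335.8 ± 71.8 CPM. The 4 on chromosome 9 (both strands of miR-100, let-7a-2-3p and miR-125b-1-3p) summed to 118 and 71 counts, or 24.2 ± 9.92 CPM. The sums of chromosomes 16 and 9 hold fewer guide strands than that of chromosome 17, because miR-125b-5p and their let-7 guides are shared with other genes. They are therefore not like measures of the clusters, and none gives the full level of cluster 16 or 9.

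The 3p strands of the 2 miR-125b genes differed widely in count. miR-125b-2-3p, from the gene on chromosome 16, had 780 and 865 counts, or 206.5 and 209.8 CPM. miR-125b-1-3p, from the gene on chromosome 9, had 1 count and 0. Both genes give the same 5p strand, and their 3p strands differ at the 5 positions named above. A 3p count reflects how much of that strand was kept and read as well as how much precursor was made, so the pair does not measure the share of miR-125b-5p from each gene. The same cluster on chromosome 9 had let-7a-2-3p at 38 counts in replicate 1 and 0 in replicate 2. let-7c-1-3p, from chromosome 16, was at 0 in both.

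**Figure D2:**
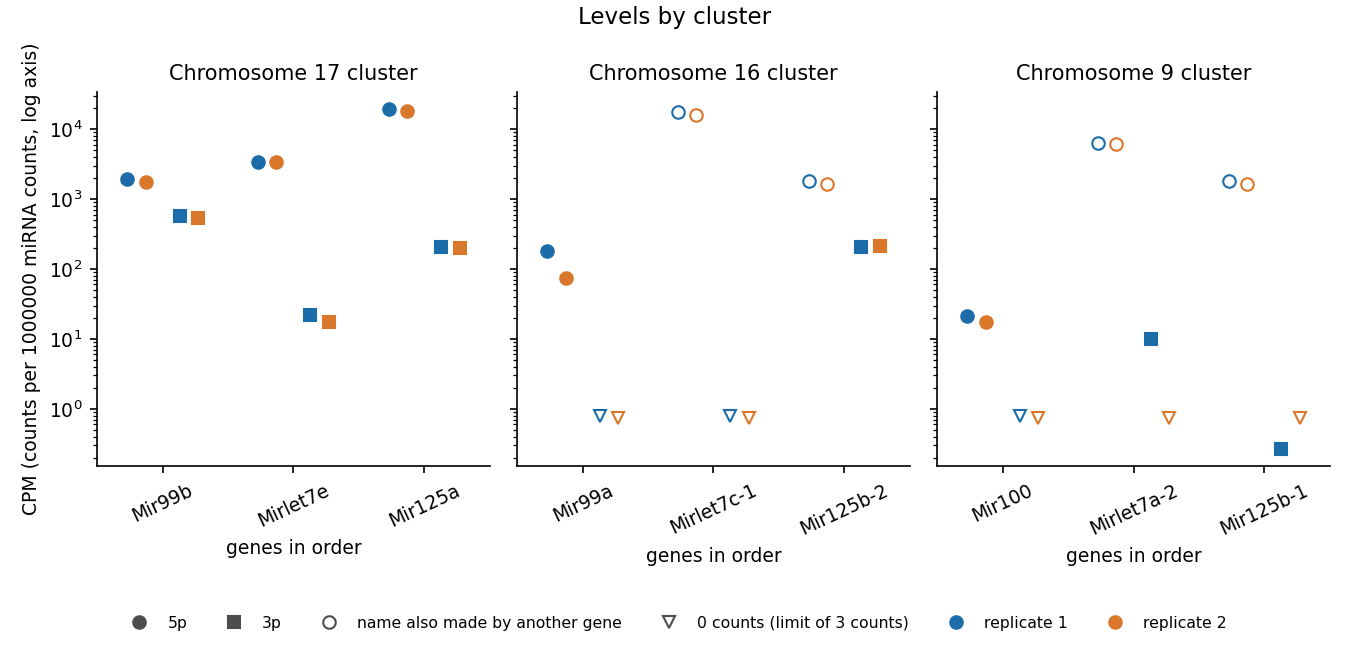
Levels in counts per 1000000 miRNA counts (CPM, log axis) of the 5p (circles) and 3p (squares) names of each cluster, with genes in the order of the chromosome and the 2 libraries in different colours. Open circles are names also made by another gene and open triangles names at 0 counts, at the limit of 3 counts. All 6 names on chromosome 17 lie at 17.5 CPM or more in both libraries, whereas on chromosome 9 the names of that cluster alone lie at or below 20.9 CPM.

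The 5p strand was the more abundant one for miR-125a, for miR-99b and for miR-125b with its 2 genes pooled. For miR-125a the 5p arm held 98.9% of the counts in each library (98.9% ± 0.0194, SD, n = 2), with 73200 against 779 counts in replicate 1 and 74707 against 816 in replicate 2. For miR-125b, with both 3p names summed, the 5p arm held 89.9% of the counts of replicate 1 (89.2% to 90.5%, Wilson 95% interval) and 88.7% of those of replicate 2 (88.0% to 89.4%). For miR-99b it held only 77.0% (76.1% to 77.8%) and 76.8% (75.9% to 77.6%). The 5p share of miR-99b was thus the lowest of these, and its 3p arm took 23.1% of its counts. The miR-125b share pools 2 genes whose 3p counts are nearly all miR-125b-2-3p. The 5p share of each miR-125b hairpin is therefore not known and cannot be ranked against that of miR-99b.

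An exact two-sided binomial test of 5p against 3p counts was run in each library over the 165 hairpins that had both arms in the tables and 100 counts or more per library, with Benjamini-Hochberg adjustment. The 5p arm was higher with an adjusted p under 0.05 in both libraries in 58.8% of these hairpins, and the 3p arm in 32.7%. All 3 entries of these families that were tested, miR-125b with its genes pooled, were in the 5p class. Their 5p shares compare with a median of 77.3% over the 165 hairpins: miR-99b lay close to it, and 22 hairpins had a higher 5p share than miR-125a. The 165 leave out hairpins with an arm listed in neither library, miR-99a and miR-100 among them. They also leave out unpaired hairpins with locus-numbered 3p names, such as let-7a and let-7c. The median and the shares hold for this set alone.

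miR-99b-3p was by far the most abundant 3p strand of these hairpins. It had 2151 and 2183 counts, or 569.5 and 529.5 CPM (549.5 ± 28.3 CPM, SD, n = 2). That placed it above the 5p strands miR-99a-5p and miR-100-5p in both libraries. miR-125a-3p had 779 and 816 counts, or 206.3 and 197.9 CPM. Its level differed from that of miR-125b-2-3p by less than the spread, the latter having 1.03 ± 0.0416 times its counts (SD, n = 2), although its 5p partner was 10.8 times as abundant as miR-125b-5p.

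miR-99a-3p shares its seed with miR-99b-3p but was at 0 in both libraries, against 680 and 310 counts of its 5p strand. The limit of 3 counts is 0.441% of its 5p count in replicate 1 and 0.968% in replicate 2. For a hairpin as two-sided as that of miR-99b, in which the 3p arm took 23.1%, the 3p count would lie far above this limit. Neither miR-99a-3p nor miR-100-3p was listed in either library, and the miRNA reference is not given in the sources used here. The limits for these names hold only if that reference included them. miR-100-3p was also at 0, where 79 and 71 counts of miR-100-5p allow a limit of 3.80% and 4.23%, so a minor arm like that of miR-125a, at 1.07%, would not have been detectable at this depth. The hairpins of miR-125a, whose minor arm was found, and of miR-99a, whose minor arm was not, are shown with the 5p and 3p strands in capitals.
Mir125a: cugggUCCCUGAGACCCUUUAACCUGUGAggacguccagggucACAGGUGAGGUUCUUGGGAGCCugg
Mir99a: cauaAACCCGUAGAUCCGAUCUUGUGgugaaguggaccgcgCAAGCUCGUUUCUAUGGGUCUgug
The Mir125a hairpin lies at chr17:17830812-17830879 and the Mir99a hairpin at chr16:77598936-77599000. Between the strands lie 14 bases in Mir125a and 15 in Mir99a.

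**Figure D3:**
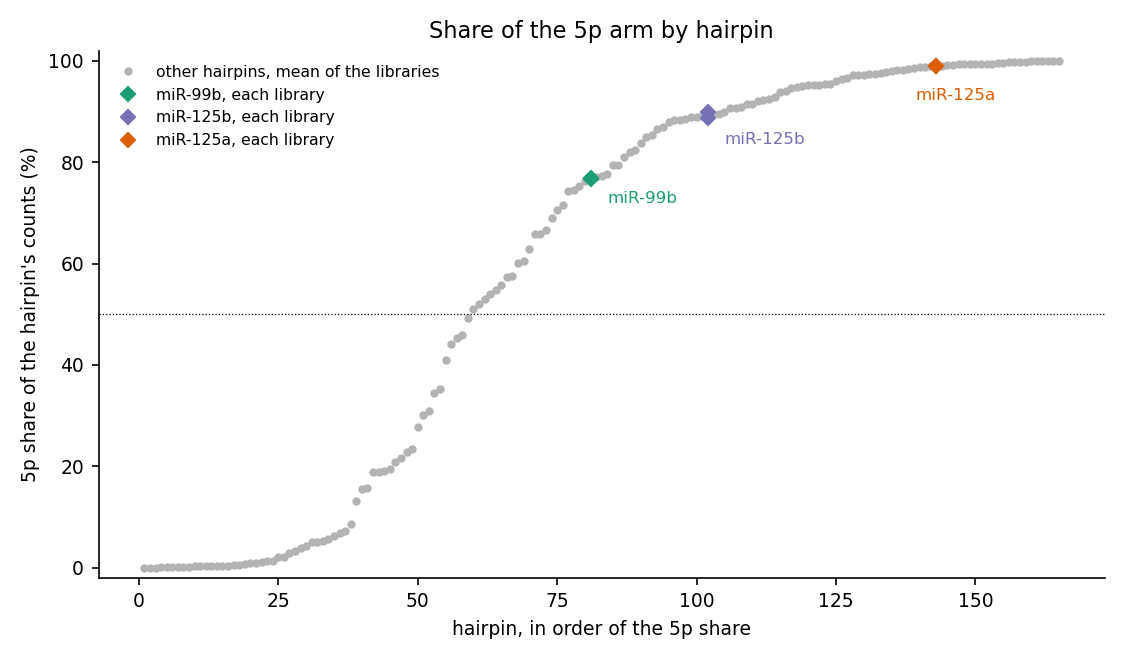
Share of the 5p arm in the counts of each of 165 hairpins (%), in order of the share, with grey points for the mean of the libraries. Coloured diamonds are the miR-99b and miR-125a hairpins, and miR-125b with its genes pooled, in each library. miR-99b, near 77%, lies at the middle of the order, and miR-125a, at 98.9%, near its upper end.

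The levels were then compared between the libraries, which asks how far a single name was reproduced and not whether a condition changed it. For each name that averaged 10 counts or more, an exact two-sided binomial test set its split between the libraries against that of the totals, and p-values were adjusted by Benjamini-Hochberg over all 1002 names. Of these, 70.6% passed an adjusted p of 0.05, 36.2% higher and 34.3% lower in replicate 2. Of the 9 names 7 were tested, and 5 of them passed, all lower in replicate 2. The share of 5 in 7 is near the background of 70.6%. Where the levels also had to differ 2-fold or more, 1 of the 7 passed (miR-99a-5p), beside 44.0% of all names. Names found in a single library have no ratio and were counted there as differing 2-fold. Ratios also spread more widely at low counts. Within 1.5 times the mean count, the median absolute log2 ratio was 0.87 for miR-100-5p and 0.11 for miR-99b-5p. The 44.0% is thus not a background of like counts. The median log2 ratio of replicate 2 over replicate 1 was -0.12 over the 7 names, beside -0.014 over the 853 tested names found in both libraries. The 7 include both strands of miR-99b and of miR-125a, so they are not independent, and the 853 were not matched to them by count. A shift of the families as a whole was not tested.

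For 4 of the 5 the difference was small. miR-125a-5p had a log2 ratio of -0.097 (95% interval -0.11 to -0.082), miR-99b-5p -0.12 (-0.17 to -0.074), miR-125b-5p -0.16 (-0.20 to -0.11) and miR-99b-3p -0.11 (-0.19 to -0.019). Such ratios were common at these counts: 15 of 30 names within 1.5 times the mean count of miR-99b-5p, and 12 of 31 for miR-125b-5p, lay as far from 0 or farther. miR-125a-3p (-0.06, -0.20 to 0.084) and miR-100-5p (-0.28, -0.76 to 0.20) did not pass, with adjusted p-values of 0.474 and 0.3 in the exact binomial test. With DESeq2 size factors in place of totals, where 70.0% of all names passed, the adjusted p of miR-99b-3p was 0.0673 in the exact binomial test and it did not pass.

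miR-99a-5p was the exception. It was 2.39-fold lower in replicate 2, a log2 ratio of -1.26 (95% interval -1.46 to -1.06; exact binomial test, adjusted p = 2.3e-38). Its mean count was 495, and of the 70 names whose means were within 1.5 times of that, 2 lay as far from 0 or farther, and their median absolute log2 ratio was 0.29. miR-125b-2-3p, from the same cluster, had a log2 ratio of 0.023 (-0.12 to 0.16), and let-7c-5p one of -0.16 (-0.18 to -0.15). With the counts of the near-identical miR-100-5p added, the log2 ratio was -1.12 (-1.30 to -0.94). The fibroblast and mesenchymal markers without miR-214-3p had 68 and 53 counts, or 18.0 and 12.9 CPM, while miR-214-3p alone had 26 and 364 counts. With miR-214-3p included, the fibroblast and mesenchymal sum rose from 24.9 to 101.1 CPM. The summed markers of endothelium went from 515.5 to 426.4 CPM, those of muscle from 34.7 to 20.4 CPM and those of neural cells from 113.9 to 101.6 CPM. Those of blood rose from 6.09 to 11.9 CPM, on 23 and 49 counts. The melanocyte name miR-211-5p rose from 0 to 1.21 CPM, on 0 and 5 counts. The part of any of these cell types in the difference of miR-99a-5p was not tested. The name whose levels were most like those of miR-99a-5p was miR-466d-3p, with 162.04 and 66.5 CPM, at a distance of 0.234 in log2 CPM. Every count was also divided by 20.7, the average ratio of variance to mean among names of 10 to 300 mean counts. miR-99a-5p then had the same log2 ratio of -1.26 with an adjusted p of 0.171 in the exact binomial test. Of all names, 1.60% passed. That drop is built into a divisor taken from these libraries, among names of lower mean count than miR-99a-5p.

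**Figure D4:**
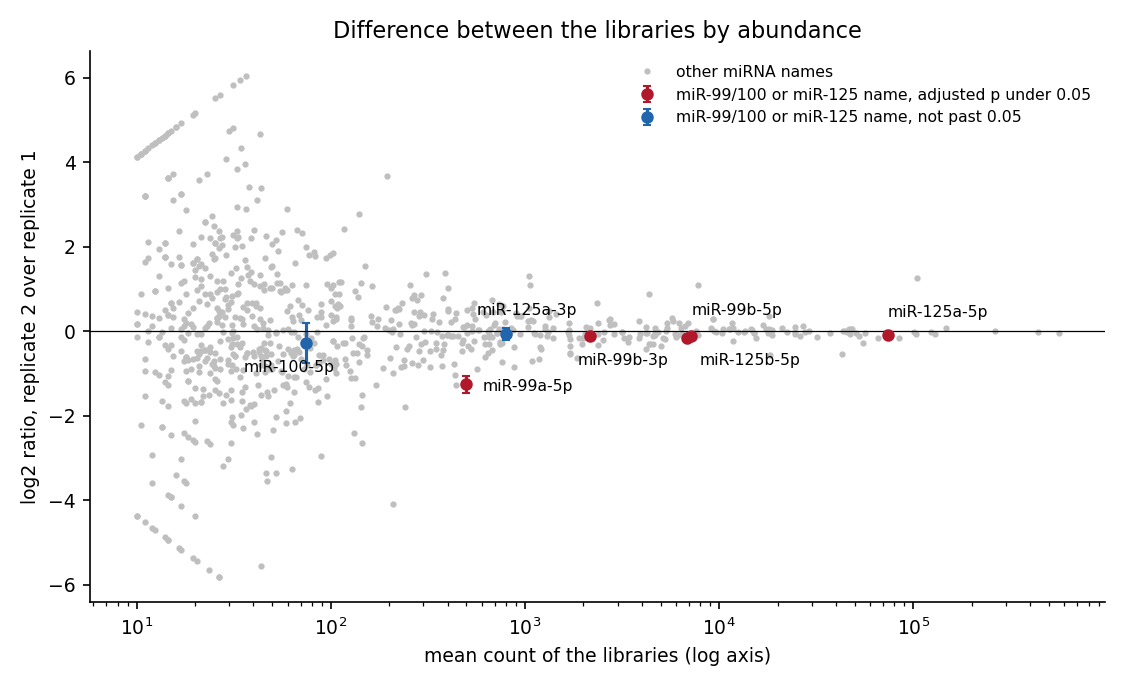
Log2 ratio of replicate 2 over replicate 1 against the mean count (log axis) for the 853 tested names found in both libraries, in grey, and the 7 miR-99/100 and miR-125 names, in colour, with exact 95% intervals. miR-99a-5p lies at -1.26, below nearly all names of like abundance, whereas the other 6 lie between -0.28 and -0.06.

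Of 12 names listed as relatives (the let-7 strands of the clusters, miR-10a, miR-10b and miR-351 with both strands), 10 were tested in the exact binomial test, 4 passed as lower and 2 as higher in replicate 2, and 4 did not pass. The 6 of 10 that passed stand beside 70.6% of all names, with 34.3% lower and 36.2% higher. let-7a-5p (-0.074), let-7c-5p (-0.16), miR-351-5p (-0.14) and let-7a-2-3p (38 and 0 counts) were lower. miR-10a-5p, a HOX-cluster miRNA, was higher with 5052 and 5782 counts and a log2 ratio of 0.068, and miR-10b-5p with 11 and 56 counts and a log2 ratio of 2.22. let-7e-5p, the cluster mate of miR-125a and miR-99b, had 3416 and 3436 CPM, a log2 ratio of 0.0086 (-0.026 to 0.043). let-7c-1-3p and miR-10b-3p were at 0 in both libraries. In level, miR-99b-5p had 1.34 ± 0.124 times the counts of miR-10a-5p (SD, n = 2).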

How the data were processed

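The authors deposited 1 table per library of whole-number counts per mature miRNA name, not normalised. Per the labels' protocols, RNA bound to biotin-labelled proteins was captured on streptavidin after DNase and RNase treatment, ligated, and amplified by RT-PCR. The submitters' processing notes name cutadapt, Novoalign and mm10 with no role or version; the miRNA reference and the handling of PCR copies, chimeric reads and multiply matching reads are not given in the sources used here. Names absent from a table were set to 0. Rows named Cali (0.00265% and 0.000218% of counts) were left out. CPM, shares, ratios, Wilson intervals and exact binomial tests used Python 3.11.15, scipy 1.17.1 and pandas 2.3.3. TMM factors (edgeR 4.0.16) and DESeq2 1.42.0 size factors served as alternative scalings. A count model between conditions was not possible with 1 group. Both tests were tried on simulated counts that held counting error only. That simulation does not cover the wider spread seen between these libraries. The names, the lists and the tests were chosen with earlier results of these data known. Named besides the 9 were the miR-125b 3p names, the listed relatives, names sharing a 5p seed, the most similar name of each 5p strand, and its neighbours in order. For arms, only miR-125b had its 3p names summed; other hairpins with locus-numbered 3p names stayed unpaired.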

Additional observations from a re-analysis of the deposited data

How the results depend on the processing

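The share of the 9 names was 2.71% in a total without the most abundant name and 2.56% in a total without names numbered 2000 and above, which follows from the smaller totals, and 2.23% to 2.41% with each library left out. Levels in CPM moved by more than the SD for 6 and 5 of 7 names under these totals, and for 0 of 7 under TMM factors and 0 of 7 under DESeq2 size factors. Of the 7 tested names, 5 differed between the libraries by the exact binomial test, beside 70.6% of all names. The number was 1 (miR-99a-5p) when a 2-fold difference was required too, where 44.0% of all names passed, names found in a single library included. It was 3 of 4 with each family summed, where fewer units were tested and 70.6% of all units passed. It was 0 with counts divided by the variance-to-mean index, where 2 of 7 had an unadjusted p under 0.05 and 1.60% of all names passed, a drop built into a divisor taken from these libraries. It was 5 of 7 under TMM factors, where 70.7% of all names passed, and 4 of 7 under DESeq2 size factors, where 70.0% passed. At an adjusted p of 0.01 it was 4 of 7, beside 63.7% of all names. With no count minimum it was 5 of 7, beside 61.1%, and with a mean of at least 100 counts 5 of 6, beside 70.9%. With miR-99a-5p summed with miR-100-5p it was 5 of 6, beside 70.6%. The 5p arm stayed the higher one for miR-99b, miR-125a and pooled miR-125b under every minimum and added count tried, and in each library alone. The share of all hairpins in the 5p class was 42.9% of 310 at a minimum of 20 counts and 59.0% of 100 at 1000 counts. It was 58.8% of 165 with 1 count added to each arm, as in the main test. All ratios of names moved by less than their SD with 1 count added. Leaving out a library gives the value of the other, so the test between libraries could not be run that way. No paired analysis was possible because all samples form 1 group. Depth limits the names with few counts: miR-100-5p had 150 counts in all, and miR-99a-3p and miR-100-3p had 0.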
